A study of Mus musculus with 24 samples.

Results

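The measurements below concern 10 genes of the eIF2-alpha kinase pathway, or integrated stress response, in mammary tumors of mice. They are the 4 kinases Eif2ak1, Eif2ak2, Eif2ak3 and Eif2ak4, the substrate Eif2s1, the transcription factor Atf4, the stress-induced genes Ddit3, Trib3 and Asns, and the phosphatase subunit Ppp1r15a. The rule took every probe that carries one of these names, and the names were picked with earlier results of these data known. They are 10 of the 30119 named genes on the array and carry 14 of its 39429 probes. Eif2ak4 had 3 probes, Eif2s1 and Atf4 had a pair each, and the other members had 1. All 14 passed the filter on low signal, and in the tumor channel each stood well above background on 100% of the arrays.

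Cells that are starved of amino acids or heme, infected by a virus or burdened with unfolded protein slow their protein synthesis through a single step, phosphorylation of the alpha subunit of the initiation factor eIF2. The phosphorylated factor blocks its own exchange factor, eIF2B, so that most messages are translated less while a few, Atf4 among them, are translated more. ATF4 then switches on genes for amino acid supply, for the transcription factor CHOP and for a phosphatase subunit that restores translation, and tumors are known to use this response under nutrient and endoplasmic reticulum stress. Much of this control acts on protein and on phosphorylation, which an RNA array does not measure.

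The study asked how a diet rich in saturated animal fat, eaten during puberty or in adulthood, bears on mammary tumors, and compared tumors of early and late onset and the diets. Female BALB/c mice, a laboratory inbred strain, all received DMBA, a chemical carcinogen, by gavage in puberty, and diets began at weaning. HFD mice ate the high-fat diet throughout and LFD mice the low-fat diet, while LFD-HFD and HFD-LFD mice changed diet as young adults. The arrays covered 3 HFD_Early and 3 HFD-LFD_Early tumors, and 5 LFD_Late, 6 HFD_Late, 4 LFD-HFD_Late and 3 HFD-LFD_Late tumors. There were thus 6 early and 18 late tumors, every tumor was DMBA-induced, no untreated tissue was on the arrays used here, and no early tumor came from a mouse that ate the low-fat diet in puberty. The labels do not say whether tumors of a group came from separate mice, so p-values measure the spread between these samples. The tumors were harvested when they reached a set size, and the labels give no age at harvest.

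Each array set tumor RNA against a commercial pool of RNA from 11 mouse cell lines, and every value below is a log2 ratio of tumor over that reference for one probe. The number of arrays limits the precision. In the tumor channel, 66.8% to 89.2% of the probes outside the dimmed rows described below stood well above background. The ratio is taken as cyanine 5 over cyanine 3, with the tumor in cyanine 5 as the labels state. The study's methods state the opposite dye for the reference, so signs here run against that sentence. The cyanine 3 signals varied less between arrays, with a median SD of 0.19 against 0.48 log2 units for cyanine 5, and 2 probes of the Y chromosome lit up in cyanine 3 with log2 ratios from -5.00 to -2.30 in tumors that all came from females. On 7 arrays of slides 6 and 7, all of late tumors, whole rows of the array were dimmed in cyanine 5. These rows held 14.5% to 18.8% of the spots and were set missing. The arrays were scanned in 3 sessions, of which the first took 3 early and 8 late tumors, the second 3 of each, and the third 7 late tumors. All HFD_Early tumors shared slide 2, and the HFD-LFD_Early tumors shared slide 4 with 1 late tumor.

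Stretches of 4 array probes are shown first because the results for Atf4, Trib3 and Eif2ak2 rest on them. Capitals mark AATAAA, the hexamer that commonly precedes the end of a messenger RNA, which 4 of the 14 member probes hold. The stretches have 30 of the 60 probe bases, 5′ to 3′, as in the deposited files, whose coordinates are on the mouse build mm9.
Atf4 brighter probe, bases 31 to 60: tgctgtgtttgctgtAATAAAttattttgt
Atf4 dimmer probe, bases 31 to 60: taacggacaaagataccttcgagttaagca
Trib3, bases 18 to 47: catcatgtgcccAATAAAagagagctgtgt
Eif2ak2, bases 31 to 60: gaatattggtagttactttgtgcctttgta
The brighter Atf4 probe lies at chr15:80087902-80087961 on the plus strand, 1263 bases downstream of the dimmer one at chr15:80086639-80086698. The Trib3 probe lies at chr2:152163161-152163220 and the Eif2ak2 probe at chr17:79252168-79252227, both on the minus strand.

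Promoter stretches are shown for 3 motifs named for factors of this pathway or of the interferon response, searched on both strands in 300-base windows, 250 bases before to 50 after each gene's start (RefSeq sequence, mouse build GRCm38.p6). All 10 members had a window, 11 in all. The C/EBP-ATF response element, searched as TGATGNAA, was found in 3.97% of 32851 windows and in those of Trib3 and Asns. The interferon-stimulated response element, searched as GAAA, any pair of bases and GAAA again, was found in 3.44% of windows and in those of Eif2ak2, Eif2s1 and Ppp1r15a. The cyclic AMP response element, searched as TGACGTCA, was found in 1.79% of windows and in that of Ppp1r15a. These 3 motifs did not overlap in the windows of the members. Capitals mark the match, positions count from the start site, and each stretch is read on the strand of its gene.
Trib3, 15 to 22, match on the opposite strand: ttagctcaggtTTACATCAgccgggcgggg
Asns, -23 to -16: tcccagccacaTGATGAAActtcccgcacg
Eif2ak2, 19 to 28: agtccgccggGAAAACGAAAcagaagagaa
Eif2s1, -212 to -203: cctggagcaaGAAACAGAAActtacctctc
Ppp1r15a, -220 to -211: aaaataaaagGAAAGGGAAAtggcacggta
Ppp1r15a, -12 to -5: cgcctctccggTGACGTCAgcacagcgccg
In the order printed, these lie at chr2:152344028-152344057 (minus strand), chr6:7693214-7693243 (minus), chr17:78882535-78882564 (minus), chr12:78861850-78861879 (plus), chr7:45526469-45526498 (minus) and chr7:45526262-45526291 (minus). A match describes the letters of a window and is not a measured binding site.

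Between early and late tumors, 3 of the 10 members passed the test by their brightest probe, and all 3 were lower in the early tumors: Eif2ak2, Atf4 and Trib3. Over all probes, 15.8% were called in this comparison (limma, Benjamini-Hochberg adjusted p under 0.05 over 27244 probes), of which 9.33% of the tested probes were lower and 6.51% higher in early tumors. The members' median log2 difference, early minus late, was -0.24, against -0.04 over all probes. In these bulk tumors, a lower value from fewer cells of a type cannot be told apart from less RNA per cell.

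Eif2ak2 encodes PKR, the kinase that senses double-stranded RNA and is itself induced by interferon. Its log2 ratios were 1.35, 1.47 and 1.5 in the HFD_Early tumors. They were 1.04, 1.12 and 1.42 in the HFD-LFD_Early tumors. Every one of these 6 values lay below every value of the 18 late tumors, a pattern that 0.433% of all probes showed with early lower.

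In the LFD_Late tumors Eif2ak2 read 2.40, 2.14, 2.67, 1.67 and 2.17. The LFD-HFD_Late tumors read 2.73, 2.69, 2.03 and 2.43, and the HFD-LFD_Late tumors 2.64, 2.66 and 1.62. The 6 HFD_Late tumors ran from 1.67 to 2.29 with a median of 2.03. The lowest late values, 1.62 to 1.67, came from 3 different diets, so no late diet stood near the early range as a whole. All of them were on slides 6 and 7, scanned in session 3. The mean was 1.32 ± 0.19 (SD) over the 6 early and 2.21 ± 0.38 (SD) over the 18 late tumors. The difference was -0.89 with a standard error of 0.16, or 1.85-fold lower in early tumors (limma, adjusted p = 0.00123).

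The lower Eif2ak2 signal was found within both scan sessions that held early and late tumors. It was -0.74 within session 1 (adjusted p = 0.0318) and -1.25 within session 2 (adjusted p = 0.0166), both by limma on the arrays of that session. Slide 2 held early tumors only, and slide 4 held all other early tumors with 1 late tumor. The session tests therefore do not separate onset from slide, and this holds for the session results of the other genes below. With the slide as a random block the difference was -0.89 (adjusted p = 0.0146). With the slide as a fixed block, where only slide 4 held both early and late tumors, it stayed below 0 but no longer passed (adjusted p = 0.356). With every array centred on its median instead of loess, the difference was -0.53 and no longer passed (adjusted p = 0.0657), while the median over all probes moved from -0.04 to 0.21.

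**Figure D1:**
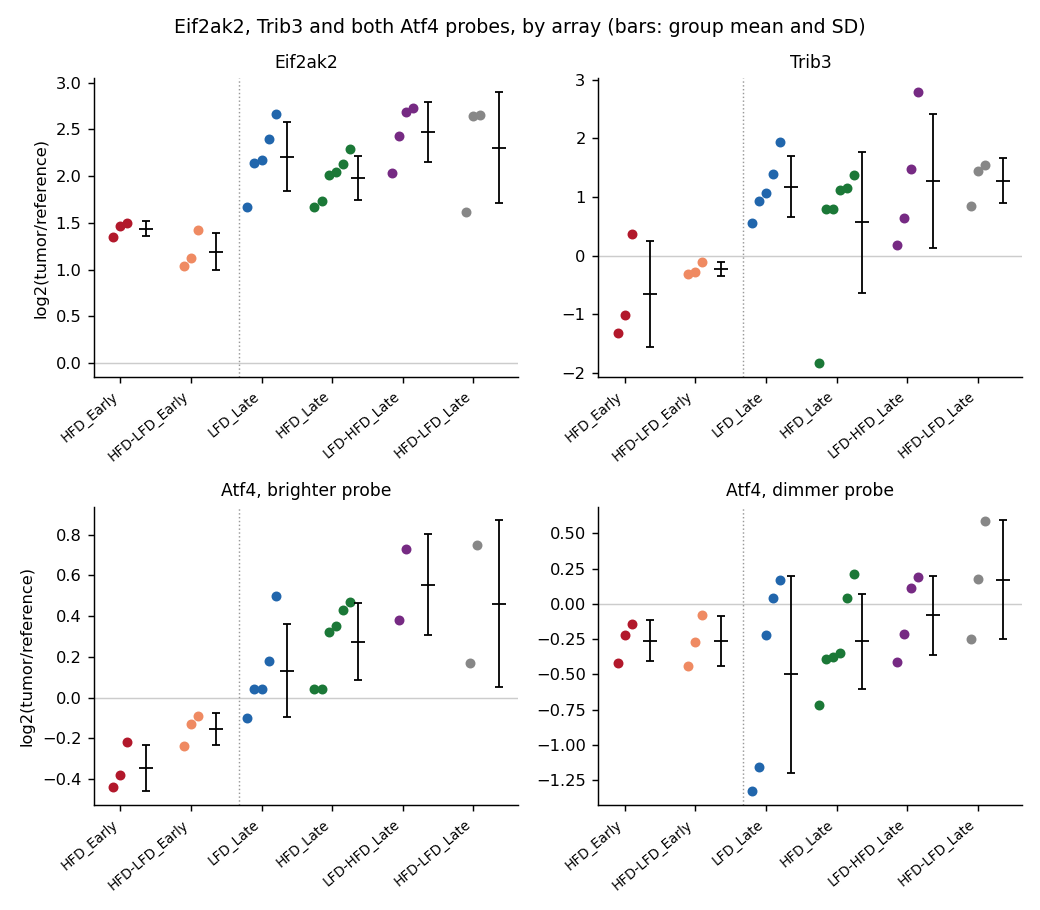
Log2 ratio of tumor over reference (vertical axis) for Eif2ak2, Trib3 and both Atf4 probes, with 1 point per array by group and bars for the mean and SD. The 6 early tumors lie below all 18 late tumors for Eif2ak2, below 16 of 18 for Trib3 and below 14 of the 15 measured for the brighter Atf4 probe, while the dimmer Atf4 probe overlaps.

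Other interferon-stimulated genes were lower in the early tumors as well. Of a list of 16 such genes, 15 passed the filter, 12 were called and all 12 were lower, with a median difference of -1.64. This was a share of 80%, against 15.8% called over all probes. Oas2, which makes the activator of an RNA-degrading enzyme, differed by -1.81 with a standard error of 0.21 (adjusted p = 5.53e-05, with 4 arrays missing). Ifit3, which belongs to a family of antiviral RNA-binding proteins, differed by -1.64 with a standard error of 0.27 (adjusted p = 0.00065). Oas1a, of the same family as Oas2, differed by -1.69 with a standard error of 0.27 (adjusted p = 0.000655, with 3 arrays missing). With the dimmed rows kept, Oas2 was -0.84 (adjusted p = 0.561) and Oas1a -1.28 (adjusted p = 0.127). Adar, an RNA editor that limits PKR activation, differed by -0.39 and did not pass (adjusted p = 0.329). The mean over the list ran from -0.09 to 0.77 in the early and from 0.43 to 2.68 in the late tumors, and these ranges overlapped. Genes missing on an array were left out of its mean, so the mean does not cover the same genes in every tumor. The overlap can therefore not be set against the lack of overlap for Eif2ak2, which was measured on every array. The late means below the highest early one, 0.43, 0.46 and 0.51, came from the tumors with the lowest late Eif2ak2 values. These were all on slides 6 and 7, where dimmed rows were set missing. Of 12 list genes with a promoter window, 6 held the element printed above for Eif2ak2.

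Of 6 T cell markers, Cd3d was called and lower, a share near that of all probes. All 6 differences were below 0, and the list mean ran from -1.63 to -0.52 in early and from -0.80 to 2.32 in late tumors. The part of T cells in the Eif2ak2 result was not tested.

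The other 3 kinases did not pass the test between all early and all late tumors. Eif2ak1 encodes HRI, the heme-regulated kinase, and differed by 0.14 with a standard error of 0.17 (adjusted p = 0.604). Its early values fell into separate ranges by diet, from -0.58 to -0.38 in HFD_Early and from -1.40 to -1.17 in HFD-LFD_Early tumors, and the late tumors ran from -1.56 to -0.30 across both. The HFD_Early tumors alone differed from all late tumors by 0.55 and passed (adjusted p = 0.0488). Within HFD the difference was 0.51 with a standard error of 0.21 (adjusted p = 0.104). Within HFD-LFD it was -0.19 with a standard error of 0.24 (adjusted p = 0.741). The test of the difference between these 2 changes gave 0.70 with a standard error of 0.31 and did not pass (limma, adjusted p = 0.589). The early diets lie on separate slides and in separate scan sessions, so for Eif2ak1 an effect of the slide and one of the diet cannot be told apart.

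Eif2ak3 encodes PERK, which responds to unfolded protein in the endoplasmic reticulum. Its mean was 0.14 ± 0.07 (SD) over the 6 early and 0.40 ± 0.42 (SD) over the 18 late tumors. The early tumors kept to 0.05 to 0.23, while the late ones ran from -0.20 to 1.70, the highest in the HFD_Late group. The difference was -0.26 with a standard error of 0.17 (adjusted p = 0.301).

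Eif2ak4 encodes GCN2, which binds uncharged tRNA when amino acids run short. Its brightest probe averaged 0.08 ± 0.24 (SD) over the 6 early and 0.30 ± 0.34 (SD) over the 18 late tumors, a difference of -0.22 with a standard error of 0.15 (adjusted p = 0.313). The other probes gave -0.24 (adjusted p = 0.147) and -0.07 (adjusted p = 0.638), so none of its 3 probes passed. The LFD-HFD_Late tumors had the highest mean of the brightest probe, 0.63 ± 0.18 (SD, n = 4).

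Of 11 regulators of these kinases, 2 were called and both were lower in early tumors, a share of 18.2% that is near the 15.8% of all probes. Hspa5, the chaperone that holds PERK inactive, differed by -0.48 (adjusted p = 0.0456), a call lost without any 1 of 15 of the 24 arrays (adjusted p up to 0.111). Dnajc3, an inhibitor of PKR and PERK, differed by -0.57 (adjusted p = 0.0271), with 4 arrays missing. With the dimmed rows kept it read 0.29 (adjusted p = 0.81), under median centring -0.13 (adjusted p = 0.623), and without HFD_Early replicate 1 or 2 it was -0.56 (adjusted p = 0.0542) or -0.53 (adjusted p = 0.0762).

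Eif2s1 encodes the alpha subunit of eIF2 that the kinases phosphorylate. Its brightest probe averaged 0.66 ± 0.25 (SD) over the 6 early and 0.77 ± 0.27 (SD) over the 18 late tumors, with a difference of -0.10 (SE 0.13, adjusted p = 0.603). Its other probe ran the opposite way, from 2.65 to 3.52 in early and from 2.14 to 3.41 in late tumors, with a difference of 0.34 (SE 0.17, adjusted p = 0.155). Neither passed, and their directions disagree. A list of 13 genes held those for the other eIF2 subunits, eIF2B and the phosphatase, with Eif5 and Nck1. Of these 1 was called, a share of 7.69% against 15.8% of all probes. That was Eif2b5, the catalytic subunit of eIF2B, which was 0.87 higher in early tumors with a standard error of 0.28 (adjusted p = 0.0369). This call was lost without HFD_Early replicate 1, 2 or 3 (0.74 to 0.80, adjusted p from 0.0903 to 0.108) and without HFD-LFD_Early replicate 1 (0.91, adjusted p = 0.0514), and with the slide as a random block (0.84, adjusted p = 0.156).

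Ppp1r15a encodes GADD34, the inducible subunit that directs a phosphatase to eIF2-alpha. It averaged -1.39 ± 0.18 (SD) over the 6 early and -1.31 ± 0.38 (SD) over the 18 late tumors, and the difference was -0.08 with a standard error of 0.16 (adjusted p = 0.751). Ppp1r15b, the constitutive counterpart, differed by -0.27 and did not pass (adjusted p = 0.354).

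Atf4 gave different results by probe. On the brighter probe the HFD_Early tumors read -0.22, -0.38 and -0.44, and the HFD-LFD_Early tumors -0.13, -0.09 and -0.24. The LFD_Late tumors read 0.18, 0.04, 0.04, 0.50 and -0.10, and the 6 HFD_Late tumors ran from 0.04 to 0.47 with a median of 0.34. The 2 measured LFD-HFD_Late tumors read 0.38 and 0.73 and the 2 measured HFD-LFD_Late tumors 0.17 and 0.75. All early values were below 0, and 14 of 15 late values lay above every early value.

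The brighter Atf4 probe sat in a dimmed row on the 3 arrays of slide 7, all of late tumors, and the fit used the other 21 arrays. The mean was -0.25 ± 0.14 (SD) over the 6 early and 0.29 ± 0.26 (SD) over the 15 late tumors. The difference was -0.54 with a standard error of 0.12, or 1.46-fold lower in early tumors (limma, adjusted p = 0.00532). Within session 1 it was -0.51 (adjusted p = 0.0455), within session 2 it was -0.71 (adjusted p = 0.055), and with the slide as a random block it was -0.63 (adjusted p = 0.014). With the slide as a fixed block it was -0.88 and did not pass.

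The Atf4 call depended on how the arrays were handled. With the dimmed rows kept the value was 0.37 and did not pass (adjusted p = 0.802). With median centring it was -0.11 (adjusted p = 0.769), and the 680 probes as bright as this one had a median of 0.58 under that centring against 0.11 after loess. In the tumor channel alone it was -0.27 (adjusted p = 0.121). The dimmer probe did not pass at all: its difference was -0.05 with a standard error of 0.20 (adjusted p = 0.897). Its early values ran from -0.44 to -0.08 and its late values from -1.33 to 0.59, and the mean over both probes differed by -0.25 (adjusted p = 0.212).

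**Figure D2:**
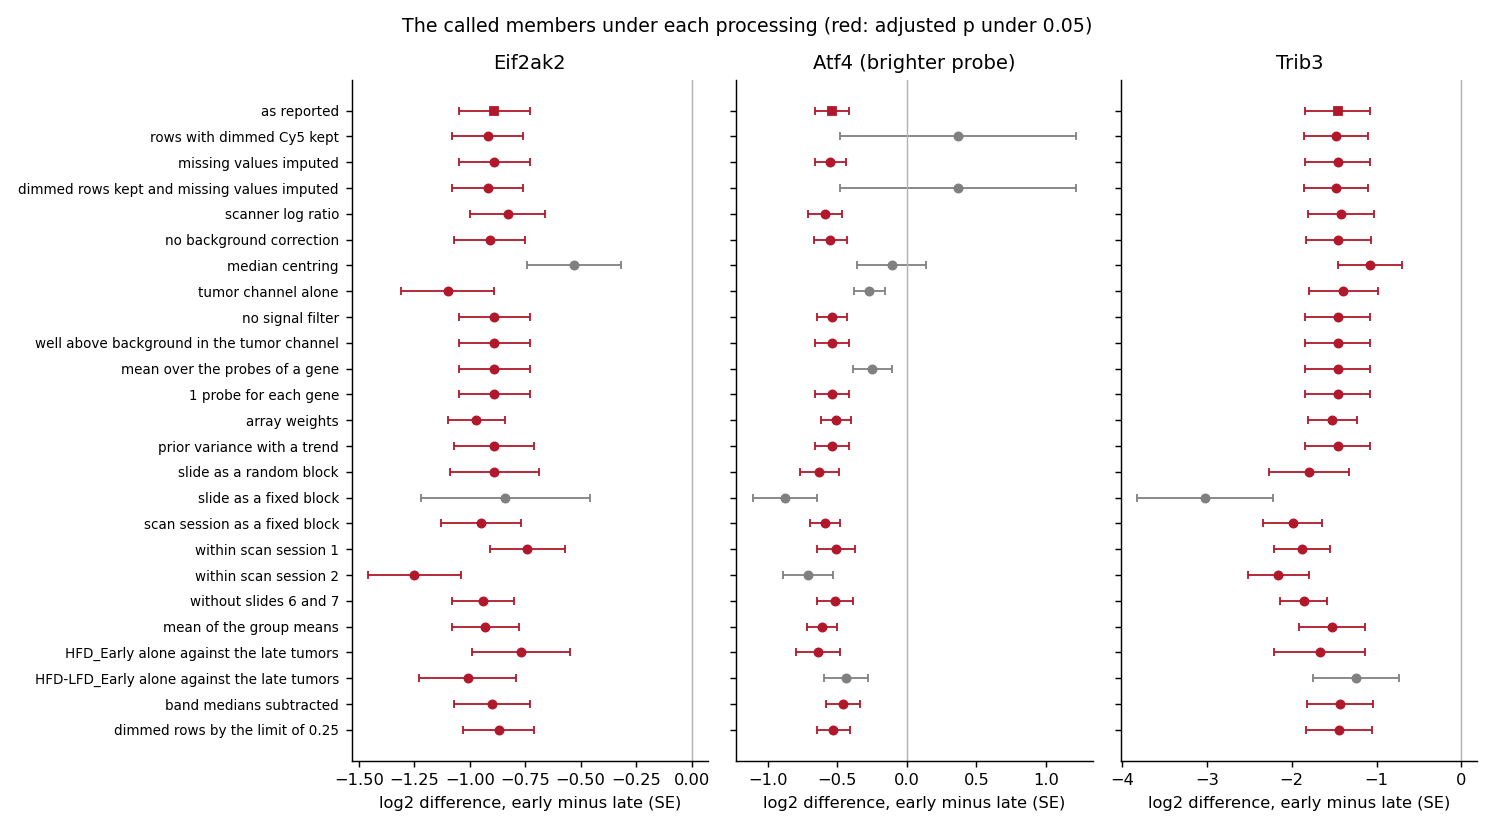
Log2 difference, early minus late, with its standard error (horizontal axis) for Eif2ak2, the brighter Atf4 probe and Trib3 under each way of processing the arrays, red where the adjusted p was under 0.05. Eif2ak2 passed in all but median centring and the fixed slide block, Trib3 in all but the fixed slide block and the HFD-LFD_Early tumors alone, and Atf4 turned to 0.37 where dimmed rows were kept.

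Trib3, a pseudokinase that ATF4 and CHOP induce and that dampens their action, showed the largest difference among the members. The HFD_Early tumors read 0.37, -1.01 and -1.32, and the HFD-LFD_Early tumors -0.32, -0.27 and -0.10. The LFD_Late tumors read 0.94, 1.07, 1.93, 0.56 and 1.39, and the HFD_Late tumors 1.38, 1.15, 1.12, 0.80, 0.79 and -1.83. The LFD-HFD_Late tumors read 1.47, 0.65, 2.79 and 0.19, and the HFD-LFD_Late tumors 1.55, 1.44 and 0.84. In all, 5 of the 6 early values were below 0 and 17 of the 18 late values above it, and 16 late tumors exceeded the highest early one.

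The exception among late tumors was HFD_Late replicate 6 at -1.83, lower than every early tumor. That tumor's mean of the luminal epithelium markers was 0.64 and its mean of the squamous markers -1.95. Its mean of the proliferation markers was 0.69, the highest of the late tumors, and its mean of the interferon-stimulated genes was 0.51. This tumor was on slide 6, and genes in its dimmed rows were left out of these means, unlike in tumors without dimmed rows. For Trib3, the mean was -0.44 ± 0.62 (SD) over the 6 early and 1.01 ± 0.91 (SD) over the 18 late tumors. The difference was -1.46 with a standard error of 0.38, or 2.74-fold lower in early tumors (limma, adjusted p = 0.0134). It was -1.88 within session 1 (adjusted p = 0.0169), -2.16 within session 2 (adjusted p = 0.0166) and -1.80 with the slide as a random block (adjusted p = 0.0271). With the slide as a fixed block it was -3.02 and did not pass. The HFD-LFD_Early tumors alone differed from the late tumors by -1.24 and did not pass (adjusted p = 0.159).

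Ddit3, which encodes CHOP, a transcription factor tied to cell death under prolonged stress, did not pass. Its early values ran from -0.77 to -0.07 and its late values from -1.13 to 0.96, with means of -0.35 ± 0.26 (SD, n = 6) and -0.06 ± 0.60 (SD, n = 18). The difference was -0.29 with a standard error of 0.24 (adjusted p = 0.432). Within session 2 alone it was -0.99 and passed (adjusted p = 0.0458), among 3 early and 3 late tumors.

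Asns encodes asparagine synthetase, a target of ATF4 used in many cells as a readout of amino acid shortage. Its means were -0.62 ± 0.38 (SD) over the 6 early and -0.70 ± 0.46 (SD) over the 18 late tumors, with a difference of 0.08 (SE 0.20, adjusted p = 0.817). The early tumors ran from -1.21 to -0.23, inside the late range of -1.35 to 0.26. Both Trib3 and Asns hold the element shown above, but only Trib3 passed the test. The difference between the 2 genes was not tested.

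**Figure D3:**
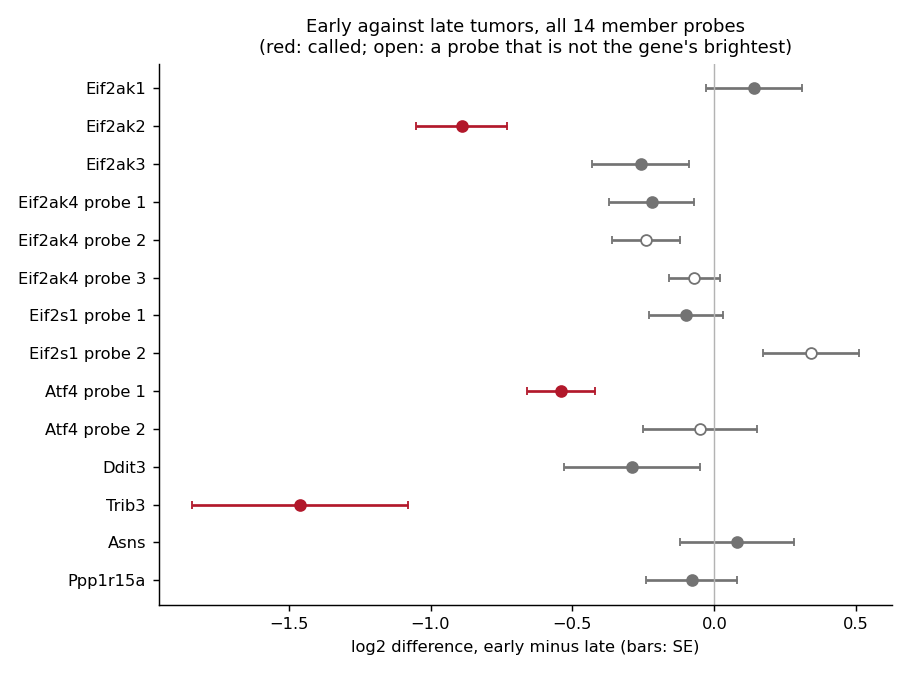
Log2 difference, early minus late tumors, for all 14 member probes (points, with bars for the standard error; red where called, open for probes other than the brightest of a gene). Only Eif2ak2 (-0.89), the brighter Atf4 probe (-0.54) and Trib3 (-1.46) are called, and the dimmer Atf4 probe lies at -0.05.

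The wider ATF4 and unfolded protein lists were mixed. Of 12 genes of amino acid and one-carbon synthesis, 3 were called, a share of 25% against 15.8% of all probes. Aldh1l2 and Mthfd1l, both enzymes of mitochondrial folate metabolism, were higher by 0.75 (adjusted p = 0.0161) and 0.74 (adjusted p = 0.0176). Within session 1 they were 0.29 (adjusted p = 0.582) and 0.58 (adjusted p = 0.211) and did not pass, nor did they with the slide as a random block (both 0.85, adjusted p = 0.0524 and 0.0561). With dimmed rows kept, Mthfd1l, which has 4 arrays missing, was 1.45 and did not pass (adjusted p = 0.109). Got1, the cytosolic aspartate aminotransferase, was lower, at -1.03 (adjusted p = 0.0168), a call lost without HFD_Early replicate 3 (-0.91, adjusted p = 0.0537), under median centring (-0.69, adjusted p = 0.0806) and in the tumor channel alone (-0.90, adjusted p = 0.0592). Of 13 genes for aminoacyl-tRNA synthetases and the tRNA exporter Xpot, Sars alone was called, a share of 7.69% that is below that of all probes. Sars differed by -0.35 (adjusted p = 0.0211). That call was lost without HFD-LFD_Early replicate 2 or 3 (adjusted p = 0.0523 and 0.0551) and with the scanner's log ratio (-0.23, adjusted p = 0.149). It was also lost in the tumor channel alone (-0.14, adjusted p = 0.547) and under median centring (0.01, adjusted p = 0.948). Of 8 tested amino acid transporters none was called: Slc38a2 read 0.63 (adjusted p = 0.0524) and Slc3a2 read -0.62 (adjusted p = 0.0552). Both lay near the threshold: Slc38a2 passed under median centring (1.03, adjusted p = 0.00503) and without any 1 of 7 arrays, and Slc3a2 with array weights (-0.91, adjusted p = 0.000507) and without any 1 of 5 arrays, while it read 0.36 with dimmed rows kept.

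Of 18 tested stress and signaling targets, 3 were called and all were lower in early tumors, a share of 16.7% that is near that of all probes, with a list median of -0.26. Atf5, a transcription factor translated under the same control as Atf4, differed by -0.95 with a standard error of 0.20 (adjusted p = 0.00304), but by -1.22 (adjusted p = 0.0778) within session 2 and by -0.88 (adjusted p = 0.0694) with the HFD-LFD_Early tumors alone. Eif4ebp1, a repressor of cap-dependent translation, differed by -0.67 with a standard error of 0.17 (adjusted p = 0.0113), but by -0.31 (adjusted p = 0.3) under median centring, by -0.49 (adjusted p = 0.136) in the tumor channel alone and by -0.57 (adjusted p = 0.112) within session 1. Stc2, a secreted glycoprotein, differed by -2.15 with a standard error of 0.65 (adjusted p = 0.0271). The Stc2 call was lost without HFD_Early replicate 2 or 3 or HFD-LFD_Early replicate 1 or 3, with values from -2.13 to -2.02 and adjusted p from 0.0542 to 0.0674, and with the slide as a random block (-2.54, adjusted p = 0.0573). Of 20 genes of the IRE1 and ATF6 arms, Creld2 (-0.45, adjusted p = 0.0169) and Hspa5 were called, a share below that of all probes, with a list median of -0.29. Creld2, a chaperone-like protein of the endoplasmic reticulum, was -0.43 (adjusted p = 0.0513) without HFD_Early replicate 2. With the slide as a random block neither passed, at -0.49 (adjusted p = 0.0684) for Creld2 and -0.50 (adjusted p = 0.115) for Hspa5. Under median centring they were -0.13 (adjusted p = 0.62) and -0.07 (adjusted p = 0.843), and in the tumor channel alone -0.48 (adjusted p = 0.0655) and -0.24 (adjusted p = 0.3). Xbp1, the transcription factor that IRE1 activates, read -0.69 and did not pass (adjusted p = 0.194).

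**Figure D4:**
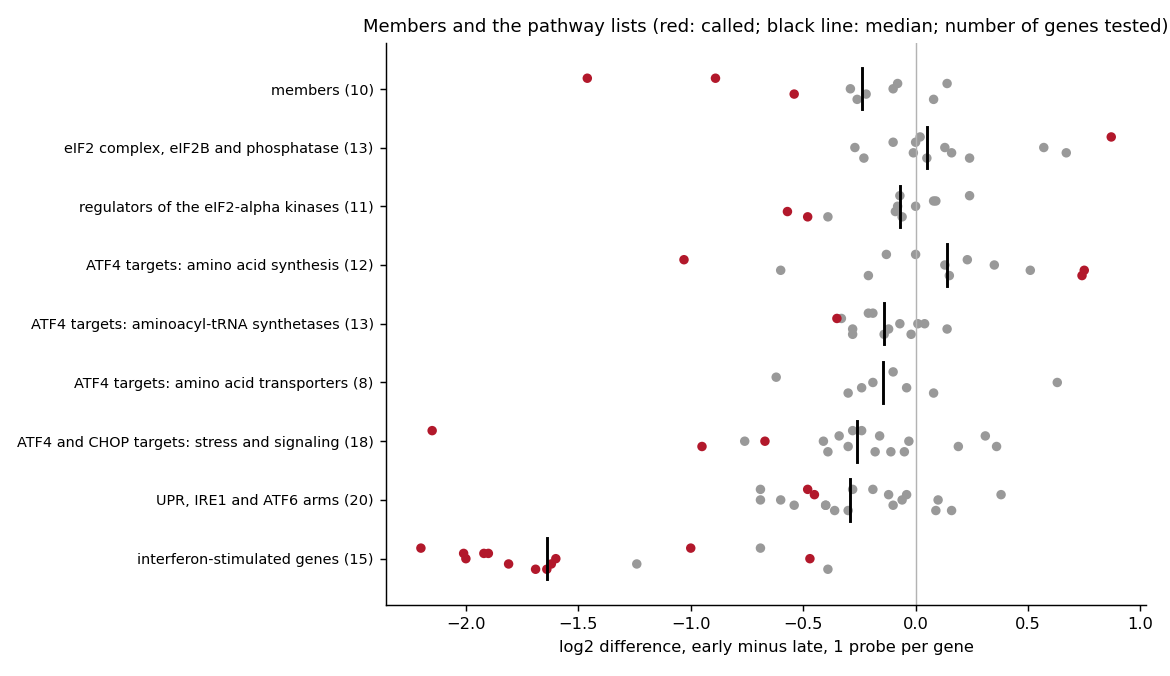
Log2 difference, early minus late tumors, for each tested gene of the members and of 8 pathway lists (1 point per gene, red where called, black line at the median). The interferon-stimulated genes sit lowest with a median of -1.64, while the other lists have medians from -0.29 to 0.14.

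Among the marker lists, the luminal and proliferation lists had called shares above that of all probes. Of 8 luminal markers, 3 were called and lower, and their mean ran from 0.06 to 2.56 in early and from -1.48 to 3.40 in late tumors. Of 8 tested squamous markers none was called, all 8 differences were above 0, and their mean ran from -2.51 to 0.22 in early and from -3.89 to 2.95 in late tumors. Of 7 tested proliferation markers, 3 were called and higher, with means from -0.04 to 0.70 in early and from -1.38 to 0.69 in late tumors. The macrophage, fibroblast and endothelium lists had 1 called gene each, all lower and a share near that of all probes, and the basal, B cell, adipocyte and muscle lists had none. The part of these markers in the results for Atf4, Trib3 and Eif2ak2 was not tested.

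HFD_Late replicate 4 stood apart among the late tumors by these markers, with the lowest luminal mean of all tumors, -1.48, and the highest squamous mean, 2.95. It also held the lowest Ddit3 value of all 24 tumors, -1.13, and the highest values of Asns, 0.26, and of Ppp1r15a, -0.66. Its Trib3 value of 0.80 and its Eif2ak2 value of 2.05 lay inside the range of the other late tumors. Leaving out this tumor or any other single array kept the 3 calls between early and late tumors. Over these 24 fits Eif2ak2 ran from -0.93 to -0.84 (adjusted p up to 0.0054), the brighter Atf4 probe from -0.57 to -0.50 (adjusted p up to 0.0205) and Trib3 from -1.62 to -1.28 (adjusted p up to 0.0464).

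Diet comparisons gave fewer calls. Between all HFD tumors (n = 9) and LFD tumors (n = 5), 0 of 10 members were called, as were 0% of all probes (limma), although 1103 probes had an unadjusted p under 0.05. One member was among these: Eif2ak2, at -0.41 in HFD relative to LFD (limma, adjusted p = 0.984), with means of 1.80 ± 0.33 and 2.21 ± 0.37 (SD). Trib3 differed by -1.02 with a standard error of 0.53 (adjusted p = 0.984). The HFD group holds the 3 early HFD tumors and the LFD group holds late tumors only.

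Within the HFD diet, early against late, Atf4 was the 1 member called, against 12.6% of all probes. Its brighter probe differed by -0.62 with a standard error of 0.16 (adjusted p = 0.0169). That call was lost without HFD_Early replicate 2 (-0.61, adjusted p = 0.0718) or 3 (-0.58, adjusted p = 0.0747). It was also lost under median centring (-0.25, adjusted p = 0.669), in the tumor channel alone (-0.32, adjusted p = 0.224), as the mean over both probes (-0.31, adjusted p = 0.359) and with the slide as a random block (-0.61, adjusted p = 0.141). Nor did it pass with dimmed rows kept, imputed or not (-0.64, adjusted p = 0.77), or with the scanner's log ratio (-0.51, adjusted p = 0.0701). Eif2ak2 differed by -0.54 with a standard error of 0.23 (adjusted p = 0.119), and Trib3 by -1.22 with a standard error of 0.59 (adjusted p = 0.17). Both lay on the same side as over all diets without passing.

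Within the HFD-LFD diet, Eif2ak2 was the 1 member called, against 0.76% of all probes. It was 2.17-fold lower in the 3 early than in the 3 late tumors, at -1.12 with a standard error of 0.26 (adjusted p = 0.0494). This call was lost without any 1 of 17 of the 24 arrays (adjusted p up to 0.249) and with the slide as a random block (-0.93, adjusted p = 0.327). It was also lost under median centring (-0.75, adjusted p = 0.259), and with the slide as a fixed block the value turned to 0.09. Atf4 differed by -0.62 with a standard error of 0.20 (adjusted p = 0.167), and Trib3 by -1.51 with a standard error of 0.68 (adjusted p = 0.308).

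The test of whether the early against late change differed between these diets called 0 members and 0% of all probes (limma, 2259 probes with an unadjusted p under 0.05). It gave 0.58 with a standard error of 0.35 for Eif2ak2 (adjusted p = 0.657), -0.01 for Atf4 and 0.28 with a standard error of 0.90 for Trib3. The calls in one diet and not in the other are therefore not shown to differ.

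Among late tumors alone, the 4 diets were compared by an F test in limma. No member was called, against 1.89% of all probes, and 1 member, Ppp1r15a, had an unadjusted p under 0.05 (limma, adjusted p = 0.202). Its mean was lowest in LFD-HFD_Late tumors, -1.67 ± 0.32 (SD, n = 4), and highest in HFD-LFD_Late tumors, -0.93 ± 0.18 (SD, n = 3). The LFD_Late and HFD_Late means lay between, at -1.21 ± 0.17 (SD, n = 5) and -1.33 ± 0.45 (SD, n = 6).

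**Figure D5:**
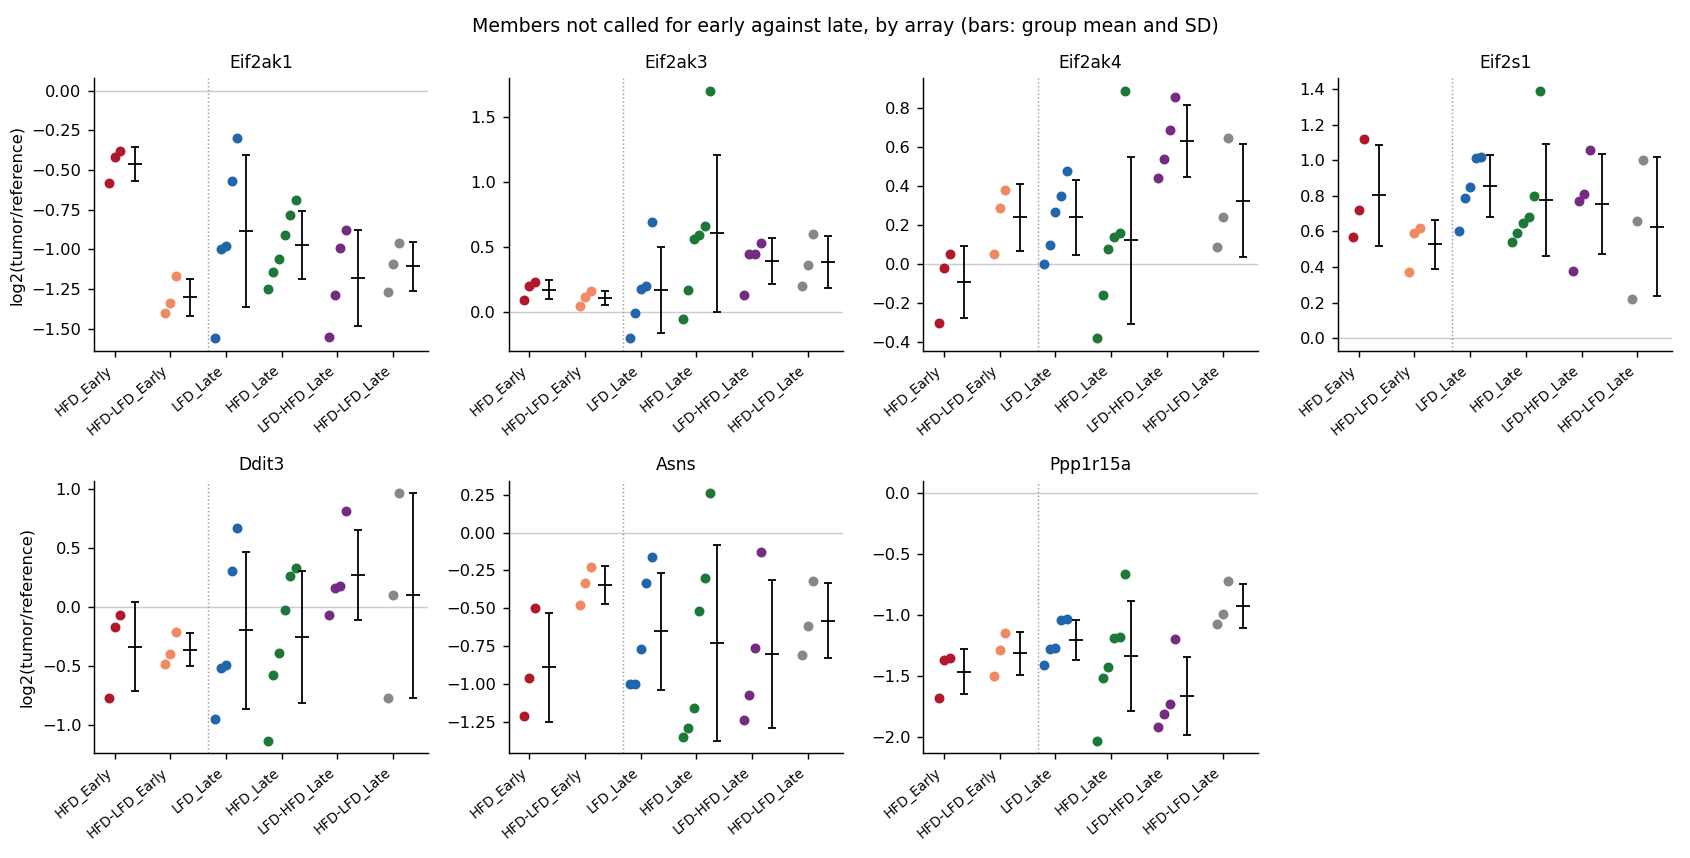
Log2 ratio of tumor over reference (vertical axis) for the brightest probes of the 7 members that were not called, with 1 point per array by group and bars for the mean and SD. Early and late tumors overlap for each of these members, and for Eif2ak1 the HFD_Early tumors (-0.58 to -0.38) lie above the HFD-LFD_Early tumors (-1.40 to -1.17).

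Atf4 and its targets were also set against each other across the late tumors, over 10 pairs of Atf4, Ddit3, Trib3, Asns and Ppp1r15a. No pair passed after Benjamini-Hochberg adjustment. Trib3 and Asns had a Pearson r of 0.54 (permutation p = 0.0163, adjusted 0.163) and a Spearman rho of 0.51 (permutation p = 0.032, adjusted 0.16) over 18 tumors. Without the 2 tumors farthest from the median of Trib3, r was 0.35. Within session 1 it was 0.20 (n = 8, exact permutation p = 0.661) and within session 3 it was 0.66 (n = 7, exact permutation p = 0.0873). Ddit3 and Trib3 had an r of 0.49 (permutation p = 0.0343, adjusted 0.172) and a rho of 0.59 (permutation p = 0.0117, adjusted 0.117). Their r was 0.57 without the 2 tumors farthest from the median of Ddit3, 0.50 within session 1 and 0.35 within session 3. Atf4 and Trib3 had an r of 0.00 over 15 tumors (permutation p = 0.989). Their r was -0.45 within session 1 (n = 8, exact permutation p = 0.268), and 0.29 over 14 tumors without HFD_Late replicate 6, left out after the data were seen (permutation p = 0.321). Arrays share slides and a reference, so these values describe the tumors measured.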

How the data were processed

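Tumor RNA and a common reference RNA were hybridised to 24 two-colour arrays. The scanner files that the authors deposited hold fluorescence intensity per spot and a background-subtracted, dye-normalized log10 ratio. The submitters' processing notes name Agilent Feature Extraction 8.5.1.1, and the file headers name 11.0.1.1. The study's methods give lowess normalization, imputation from 10 neighbours, a signal above 10 in 80% of samples, and limma. Here the intensity was corrected by normexp (offset 50), normalized by loess within each array, and averaged per probe. Outlier spots (0.321% to 1.64%) were left out. Bands of 10 rows lying more than 0.5 log2 units below the array's median were set missing and not imputed. After the filter 27244 probes were tested in limma 3.58.1 (R 4.3.3) as early against late tumors, as HFD against LFD on those arrays, and as contrasts of 6 group means with a shared spread for the other comparisons, and p-values were adjusted by Benjamini-Hochberg. A gene was read from its brightest probe. A list mean was taken over the genes measured on each array, so on slides 6 and 7 it can cover fewer genes. All 10 members were named, and of each pathway list the 3 called genes with the smallest p, or the first 2 where none was called; Adar, Ppp1r15b, Xbp1 and Cd3d were named after their values were seen. Slide and scan session were taken from the file headers. Correlations used 1e+05 permutations (scipy 1.17.1). The fits were tested on simulated data with independent noise for each array, which do not cover effects shared by the arrays of a slide. Members, lists and tests were chosen with earlier results of these data known. The alternatives covered dimmed rows, imputation, scaling, background, filters, probes, weights, batches and single arrays. The study's methods count 25 arrays; 24 were analysed here. Symbols were updated for probes through RefSeq accessions or names (27234 probes by accession, 3576 by symbol, 565 by older symbol), and 8054 kept the name on file.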

Additional observations from a re-analysis of the deposited data

Results flagged for a closer look

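In 55 sets of 4 to 6 tumors (for each probe, the LFD_Late, HFD_Late and LFD-HFD_Late groups and the 6 early tumors together, where enough values were measured), a gap test for a single outlying value (Dixon's) marked 5 values among the member probes, where chance marks about 1 set in 20. Trib3 read -1.83 in HFD_Late replicate 6, with the nearest tumor of its group at 0.79. The brightest Eif2s1 probe read 1.39 in HFD_Late replicate 5, with the nearest at 0.80. The third Eif2ak4 probe in order of brightness read 0.39 in the same tumor, with the nearest at 0.03. The second Eif2ak4 probe read -0.22 in HFD_Late replicate 6, with the nearest at 0.21, and 0.11 in LFD-HFD_Late replicate 3, with the nearest at 0.45. No early against late change of a member differed between the HFD and HFD-LFD diets by the test of that difference.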

How the results depend on the processing

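The count of 3 members called between early and late tumors (4316 of all 27244 probes) was 3 without any single array. With the HFD_Early tumors alone (4506 probes) it rose, as Eif2ak1 also passed (0.55, limma, adjusted p = 0.0488). The count was 2, with the Atf4 call lost, when dimmed rows were kept (2862 probes, or 2881 with imputation). It was also 2, again without Atf4, in the tumor channel alone (3053 probes) and with the mean over probes (3471 called). It was 1 under median centring (6563 probes), 1 with the HFD-LFD_Early tumors alone (1158 probes) and 0 with the slide as a fixed block (89 probes), where only slide 4 holds both early and late tumors. Under that block Eif2ak2 was -0.84 (adjusted p = 0.356), Trib3 -3.02 (0.12) and the brighter Atf4 probe -0.88 (0.114), and it could not be fitted within HFD or for the difference between diets. Without single arrays the count ranged from 0 to 2 within HFD, from 0 to 1 within HFD-LFD, and stayed at 0 for the other comparisons.

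Within HFD the count of called members, whichever they were, was 1 as reported, with 3423 probes called. It was 0 with dimmed rows kept (2030 probes, or 2034 with imputation), with the scanner's log ratio (2859 probes) and with the mean over probes (2408 called). With the slide as a random block it was also 0 (224 probes). It was 2 with the scan session as a block (4583 probes), 3 without slides 6 and 7 (4560 probes), and 5 with array weights (11017 probes). Within HFD-LFD it was 0 with dimmed rows kept (70 probes), imputation (183), both together (70) and the scanner's log ratio (154). It was 0 with median centring (295), no background correction (140), the well-above-background filter (182) and the tumor channel taken alone (71). The same held with 1 probe per gene (152), a trended prior (195) and the slide as a random (10) or fixed block (307). A dimming limit of 0.25, which was chosen after seeing the data, also gave 0 (235). The count was 2 without slides 6 and 7 (543 probes) and 3 with array weights (3038 probes), against 1 member and 207 probes. Among late diets it was 2 with array weights (7521 probes) and 1 with the fixed slide block (561 probes), against 0 members and 514 probes. By unadjusted p the counts were 1 for HFD against LFD (1103 probes), 4 within HFD (7940), 3 within HFD-LFD (3952), 1 for the difference (2259) and 1 among late diets (5400).

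Signs turned for these early minus late values. With dimmed rows kept, imputed or not, Atf4 was 0.37, Dnajc3 0.29 and Slc3a2 0.36. Under median centring Eif2ak3 was 0.14, Eif2ak4 0.19, Eif2s1 0.26, Ddit3 0.10, Ppp1r15a 0.27 and Sars 0.01, where 81.9% of called probes were higher in early tumors against 41.1% after loess. In the tumor channel alone, where that share was 60.2%, Ppp1r15a was 0.03. Eif2s1 was 0.12 as the mean over probes, 0.15 with the fixed slide block, 0.09 with the session block, 0.07 in session 1, 0.10 in session 2, 0.02 without slides 6 and 7 and 0.03 with HFD_Early alone. Asns was -0.22, -0.11, -0.30, -0.05 and -0.19 in the same order, leaving out the mean over probes and session 2. Eif2ak1 was -0.09 with array weights, -0.01 with the fixed slide block, -0.08 in session 2 and -0.28 with HFD-LFD_Early alone, while with HFD_Early alone it was 0.55 and passed (adjusted p = 0.0488). Eif2ak2 within HFD-LFD was 0.09 with the fixed slide block. The cause was not tested.

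No paired analysis was made, since the labels name no pairs of tumors. The labels give no replicate numbers either, and the numbers used here follow the order of the samples and only name them. The dye ratio compresses differences near background, but every member probe was well above it in the tumor channel.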
